A study of Mus musculus with 16 samples.

Results

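The genes described here are 10 members of the mammalian circadian clock: *Ciart*, *Dbp*, *Tef*, *Per1*, *Per2*, *Per3*, *Nr1d1*, *Nr1d2*, *Arntl* (also called *Bmal1*) and *Clock*. They were chosen by name from the 35647 genes of the deposited table, all 10 were found by symbol, and all 10 passed the filter on low counts in every fit. *Ciart* was included because of its values in the ileum of mice that carried the 2 strains compared, so that comparison is given for the members as a description with no test. The libraries came from wild-type mice, born germ-free and then colonised for 5 weeks with a single bacterium. The bacterium was Δchat *Bifidobacterium breve*, which lacks acetylcholine production, or WT *B. breve*. Immune cells of the lamina propria, the connective tissue under the gut epithelium, were taken from colon and ileum on a gradient of 40% and 80% Percoll and sequenced in bulk. The 4 groups were Δchat colon, WT colon, Δchat ileum and WT ileum, with 4 libraries each from 4 mice per strain. Every mouse in these groups was monocolonised, so none was germ-free and none had a full microbiota. The age, sex and hour of collection of the mice were not given in the sources used here.

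The clock is a loop of transcription. CLOCK and BMAL1, the product of *Arntl*, bind as a pair to E-box sequences and switch on the *Per* genes, *Dbp*, *Tef*, *Nr1d1*, *Nr1d2* and *Ciart*. PER proteins and CIART (also called CHRONO) repress that pair, and the nuclear receptors REV-ERBα and REV-ERBβ, products of *Nr1d1* and *Nr1d2*, repress *Arntl*. In mouse tissues the transcripts of the targets therefore peak at another time of day than that of *Arntl*, and a bulk sample taken at 1 hour catches 1 point of that cycle.

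The control sequences named above can be read in the promoters of several members. RefSeq promoters (build GRCm38.p6, from 250 bases before to 50 bases after a transcript start) were held for 9 of the 10 members, 14 promoters in all, and *Per2* had none. The counts were made on GRCm39, so the coordinates below belong to the other build. Windows of 100 bases are shown for the 5 members whose motif lies upstream of a transcript start, since such sequences are those through which the loop is known to work. Capitals mark the E-box CACGTG in *Ciart*, *Tef* and *Per1*, its variant CACGTT (the E'-box, here on the opposite strand, so that it reads AACGTG) in *Nr1d1*, and the D-box TTANGTAA, the site of DBP and TEF, in *Per3*.
Ciart: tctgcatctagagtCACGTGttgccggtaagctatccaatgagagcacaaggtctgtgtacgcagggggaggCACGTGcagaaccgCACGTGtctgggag
Tef: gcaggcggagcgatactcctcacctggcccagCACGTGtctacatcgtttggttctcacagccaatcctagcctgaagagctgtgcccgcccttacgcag
Per1: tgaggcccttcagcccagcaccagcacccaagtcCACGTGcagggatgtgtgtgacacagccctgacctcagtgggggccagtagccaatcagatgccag
Nr1d1: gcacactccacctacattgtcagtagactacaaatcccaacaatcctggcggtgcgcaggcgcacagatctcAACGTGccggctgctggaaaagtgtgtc
Per3: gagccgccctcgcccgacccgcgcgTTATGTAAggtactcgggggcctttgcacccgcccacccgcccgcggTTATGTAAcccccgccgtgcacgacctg
The *Ciart* window is chr3:95882259-95882358 on the minus strand and holds 3 E-boxes, at bases -116, -58 and -44 from the transcript start. The *Tef* window is chr15:81811244-81811343 on the plus strand, at the second of 2 listed starts, with its E-box at -138, and the first start had one at -127. The *Per1* window is chr11:69098749-69098848 on the plus strand, with its E-box at -166. The *Nr1d1* window is chr11:98775378-98775477 on the minus strand, with the E'-box at -28. The *Per3* window is chr4:151044796-151044895 on the minus strand, with D-boxes at -205 and -158. Of 32851 mouse promoters of this length, searched on both strands, 7.15% held at least 1 CACGTG and 29 (0.0883%) held 3 or more, as *Ciart* does. The shares were 4.68% for CACGTT and 2.32% for TTANGTAA. The element TAGGTCA, to which REV-ERB and ROR receptors bind, was in 2.61% of promoters and among members in *Arntl* alone, at base 31 after its second start. None of these motifs was found in the windows of *Dbp*, *Nr1d2* and *Clock*. A match is a run of letters and was not tested for binding.

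The libraries held between 15940467 and 23612561 estimated counts. Values below are CPM, counts scaled to a common library total, on 1 scale for all 16 libraries. *Ptprc*, which encodes the leukocyte protein CD45, was between 601 and 1280 CPM. Markers of other cells were present as well. The sum of 5 epithelial markers was between 144 and 2280 CPM in Δchat colon, where replicate 3 held the 2280, and between 30.5 and 145 CPM in WT colon. The sum of 4 plasma cell markers was between 17100 and 24200 CPM in Δchat colon and between 32300 and 65600 CPM in WT colon, without overlap. Of the 2 eosinophil markers, *Epx* was at 0 in all 8 colon libraries, and *Siglecf* was detected. *Siglecf* was at 2.03 ± 0.825 CPM in Δchat colon and 0.741 ± 0.407 CPM in WT colon (SD, n = 4 each), with overlap. In ileum it was at 6.92 ± 9.71 CPM with Δchat and 6.89 ± 1.30 CPM with WT (SD, n = 4 each). In such bulk samples, a change in the number of cells of a type and a change in RNA per cell cannot be told apart.

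In the colon, *Ciart* was the member with the smallest p between mice carrying Δchat and WT bacteria, but it did not pass the test over all genes. Its level was 37.4, 47.1, 26.8 and 30.2 CPM in the 4 Δchat colon libraries, against 24.9, 25.2, 19.7 and 23.9 CPM in the 4 WT colon libraries. Each Δchat library was above each WT library, by a narrow margin between replicate 3 of Δchat and replicate 2 of WT. The means were 35.4 ± 8.98 CPM in Δchat colon and 23.4 ± 2.56 CPM in WT colon (SD, n = 4 each). edgeR's quasi-likelihood fit put the log2 fold change at 0.60 ± 0.18 (SE), or 1.52-fold, with an unadjusted p of 0.00771 and a Benjamini-Hochberg adjusted p of 0.313. DESeq2 gave an adjusted p of 0.0856, and over all alternatives the adjusted p lay between 0.0856 and 0.547. The colon libraries did not choose *Ciart*, but they came from the same mice as the ileum libraries that did. Within this comparison 1 of 14660 genes was called by edgeR (0.00682%), and 0 of the 10 members. At an unadjusted p under 0.05 were 1951 genes (13.3%) and 1 member, and DESeq2 called 313 of 13767 genes (2.27%) and 0 members. The groups did not overlap, with Δchat higher, in 3.59% of all genes and in 1 of the 10 members, *Ciart*, and with Δchat lower in 3.95% of all genes and no member. Several marker sums moved with the same groups: that of plasma cells above, without overlap, that of epithelium nearly so, and that of 2 mast cell markers, between 50.8 and 70.8 CPM in Δchat colon and between 37.4 and 50.2 CPM in WT colon. The sum of 4 macrophage markers was between 212 and 443 CPM in Δchat colon and between 165 and 229 CPM in WT colon, and that of 4 markers of enteric glia and neurons between 5.67 and 8.60 CPM in Δchat colon and between 8.57 and 14.1 CPM in WT colon. The mast cell sum was mostly *Kit*, with means of 54.5 CPM in Δchat colon and 41.7 CPM in WT colon. The other mast cell marker, *Cpa3*, had means of 4.76 CPM in Δchat colon and 3.91 CPM in WT colon and overlapped. The part of these sums in the *Ciart* difference was not tested. Without Δchat replicate 3, the library with the highest epithelial sum, the log2 fold change was 0.71 with an adjusted p of 0.222.

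**Figure D1:**
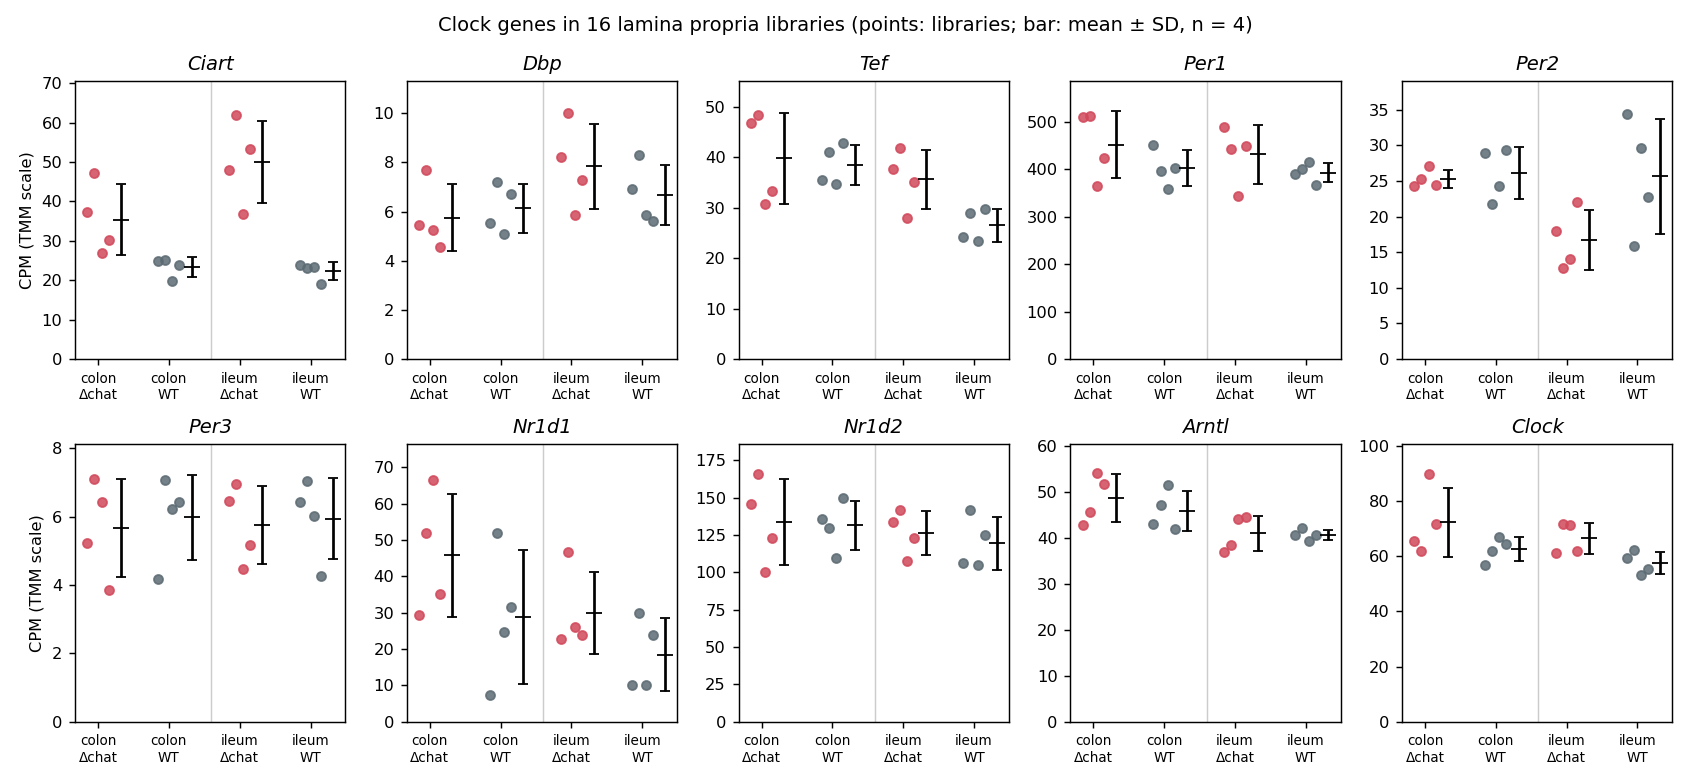
CPM of the 10 clock genes in the 16 libraries, 1 panel per gene with its own linear axis from 0. Points are libraries of Δchat colon, WT colon, Δchat ileum and WT ileum in order of replicate, and bars are the mean ± SD (n = 4). *Ciart* lies above 26 CPM in all Δchat libraries and below 26 CPM in all WT libraries, while the other members overlap between strains in both tissues.

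The activators of the loop overlapped between the strains in the colon. *Clock*, which encodes the partner of BMAL1, had 65.6, 61.9, 89.8 and 71.8 CPM in Δchat colon, against 57.0, 61.9, 66.8 and 64.6 CPM in WT colon. Replicate 3 of Δchat was the highest library, and the other 3 lay within or just above the WT range. The log2 fold change was 0.22 ± 0.12 (SE), with an edgeR adjusted p of 0.463 and a 95% interval of -0.06 to 0.50. *Arntl* had 42.9, 45.7, 54.2 and 51.8 CPM in Δchat colon, against 43.1, 47.3, 51.5 and 42.0 CPM in WT colon. These ranges nearly coincide, and the log2 fold change was 0.09 ± 0.10 (SE), with an edgeR adjusted p of 0.714 and an interval of -0.14 to 0.33.

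The repressors other than *Ciart* overlapped too. *Per1*, an early repressor that glucocorticoids also induce, had 509, 511, 364 and 423 CPM in Δchat colon, against 451, 395, 359 and 403 CPM in WT colon. Its replicates 1 and 2 of Δchat were above all WT libraries and replicates 3 and 4 were not, giving a log2 fold change of 0.18 ± 0.13 (SE) and an edgeR adjusted p of 0.569. *Per2* had between 24.3 and 27.1 CPM in Δchat colon and between 21.8 and 29.4 CPM in WT colon, and *Per3* between 3.86 and 7.10 CPM in Δchat colon and between 4.18 and 7.06 CPM in WT colon. Their log2 fold changes were -0.04 ± 0.12 for *Per2* and -0.07 ± 0.24 for *Per3*. The REV-ERBα gene *Nr1d1* spread more than any other member: it had 29.3, 52.0, 66.6 and 35.2 CPM in Δchat colon, against 7.30, 52.0, 24.7 and 31.6 CPM in WT colon. Replicate 1 of WT was far below the rest, and the group SD was 64.0% of the mean in WT colon. Its log2 fold change of 0.68 ± 0.53 (SE) had a 95% interval of -0.56 to 1.92 and an edgeR adjusted p of 0.599, so at this spread a change of the size seen for *Ciart* was not detectable. *Nr1d2*, the REV-ERBβ gene, had between 100 and 166 CPM in Δchat colon and between 110 and 150 CPM in WT colon, with a log2 fold change of 0.03 ± 0.16 (SE).

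*Dbp* and *Tef* encode PAR bZip factors that carry clock output to D-box genes. *Dbp* had 5.46, 7.71, 5.25 and 4.56 CPM in Δchat colon, against 5.53, 7.20, 5.09 and 6.72 CPM in WT colon, a log2 fold change of -0.08 ± 0.21 (SE). *Tef* had 46.8, 48.3, 30.7 and 33.4 CPM in Δchat colon, against 35.6, 41.0, 34.7 and 42.8 CPM in WT colon, a log2 fold change of 0.05 ± 0.16 (SE). The Δchat libraries lay on both sides of the WT range of *Tef*, with replicates 1 and 2 above it and replicates 3 and 4 below it. Over the 10 members the median log2 fold change in the colon was 0.07, with 7 above 0 and 3 below, and over all genes the median was 0.01. The values of *Ciart* and *Dbp* carry a limit from overlapping genes: in GENCODE M21 *Ciart* lies within a gene on the opposite strand that was not analysed here, and *Dbp* overlaps *Sphk2*. The second strand of the cDNA was made with dTTP, per the labels' protocols, so the libraries do not mark strand. Reads from a stretch that overlapping genes share therefore cannot be assigned by strand. How much of each value comes from such stretches was not tested. *Nr1d1* likewise overlaps *Thra*, *Per3* lies within *Camta1*, and *Tef* and *Arntl* overlap gene models on the opposite strand.

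In the ileum, the comparison that put *Ciart* on the list, its level was 48.1, 62.0, 36.9 and 53.2 CPM in the Δchat libraries, against 23.8, 23.0, 23.4 and 19.0 CPM in the WT libraries. The ranges were far apart, with means of 50.1 ± 10.5 CPM in Δchat ileum and 22.3 ± 2.23 CPM in WT ileum (SD, n = 4 each) and a log2 fold change of 1.15 ± 0.15 (SE), or 2.22-fold. Across the 4 groups *Ciart* was highest in Δchat ileum, then Δchat colon, then WT colon and WT ileum, and the last 2 differed by less than their SD. Whether the difference between strains was larger in ileum than in colon was not tested, since the ileum values chose the gene. The edgeR fit called 3 of 14496 genes (0.0207%) in the ileum. The groups did not overlap, with Δchat higher, in 3.79% of all genes and, of the members, in *Ciart*, and with Δchat lower in 3.66% of all genes and no member. DESeq2 called 374 of 14467 genes there (2.59%). The sum of 4 plasma cell markers was between 49800 and 86900 CPM in Δchat ileum and between 82200 and 151000 CPM in WT ileum. A stromal sum was taken over 5 markers of stroma and smooth muscle. It was between 798 and 3950 CPM in Δchat ileum and between 2380 and 3820 CPM in WT ileum. Its markers differed in direction, and all 5 overlapped between the strains. The log2 fold changes were -1.04 for *Col1a1*, -0.98 for *Col3a1* and -1.02 for *Pdgfra*, but 0.32 for *Acta2* and 0.38 for *Myh11*. The sum of 2 mast cell markers was between 49.3 and 75.1 CPM in Δchat ileum and between 73.4 and 101 CPM in WT ileum. This sum too was mostly *Kit*, with means of 57.7 CPM in Δchat ileum and 84.3 CPM in WT ileum. *Cpa3* had means of 1.37 CPM in Δchat ileum and 1.67 CPM in WT ileum, and both genes overlapped. The direction of the sum was opposite to that in colon. The part of these sums in the *Ciart* values was not tested.

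The other members in the ileum are given beside it as values. *Tef* had 37.6, 41.8, 28.0 and 35.1 CPM in Δchat ileum, against 24.1, 29.0, 23.4 and 29.7 CPM in WT ileum. Here 3 of the 4 Δchat libraries were above all WT libraries, and the log2 fold change was 0.41 ± 0.14 (SE). *Per2* was the member with the largest difference the other way. It had 18.0, 12.8, 14.0 and 22.1 CPM in Δchat ileum, against 34.4, 15.9, 29.6 and 22.7 CPM in WT ileum, with a log2 fold change of -0.63 ± 0.26 (SE). Replicate 2 of WT lay inside the Δchat range, so the groups overlapped. *Nr1d1* had 22.8, 46.6, 26.0 and 24 CPM in Δchat ileum, against 10, 30.0, 10.2 and 23.8 CPM in WT ileum, with a log2 fold change of 0.67 ± 0.42 (SE). Replicate 2 was the highest library of *Nr1d1* in each ileum group, but numbers do not pair mice of different strains. The sum of 4 macrophage markers was 2050 CPM in replicate 2 of Δchat ileum, the highest of its group. In replicate 2 of WT ileum it was 709 CPM, the lowest of its group. The part of cell content in the *Nr1d1* values was not tested. *Clock* was at 66.5 ± 5.74 CPM in Δchat ileum and 57.5 ± 4.03 CPM in WT ileum (SD, n = 4 each), and *Arntl* at 41.1 ± 3.84 CPM in Δchat ileum and 40.7 ± 1.13 CPM in WT ileum (SD, n = 4 each). Their log2 fold changes were 0.19 ± 0.09 (SE) for *Clock* and 0.00 ± 0.08 (SE) for *Arntl*. *Per1*, *Per3*, *Dbp* and *Nr1d2* had log2 fold changes of 0.12, -0.06, 0.22 and 0.07. The median over the 10 members was 0.16, with 8 above 0 and 2 below, against 0.01 over all genes.

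**Figure D2:**
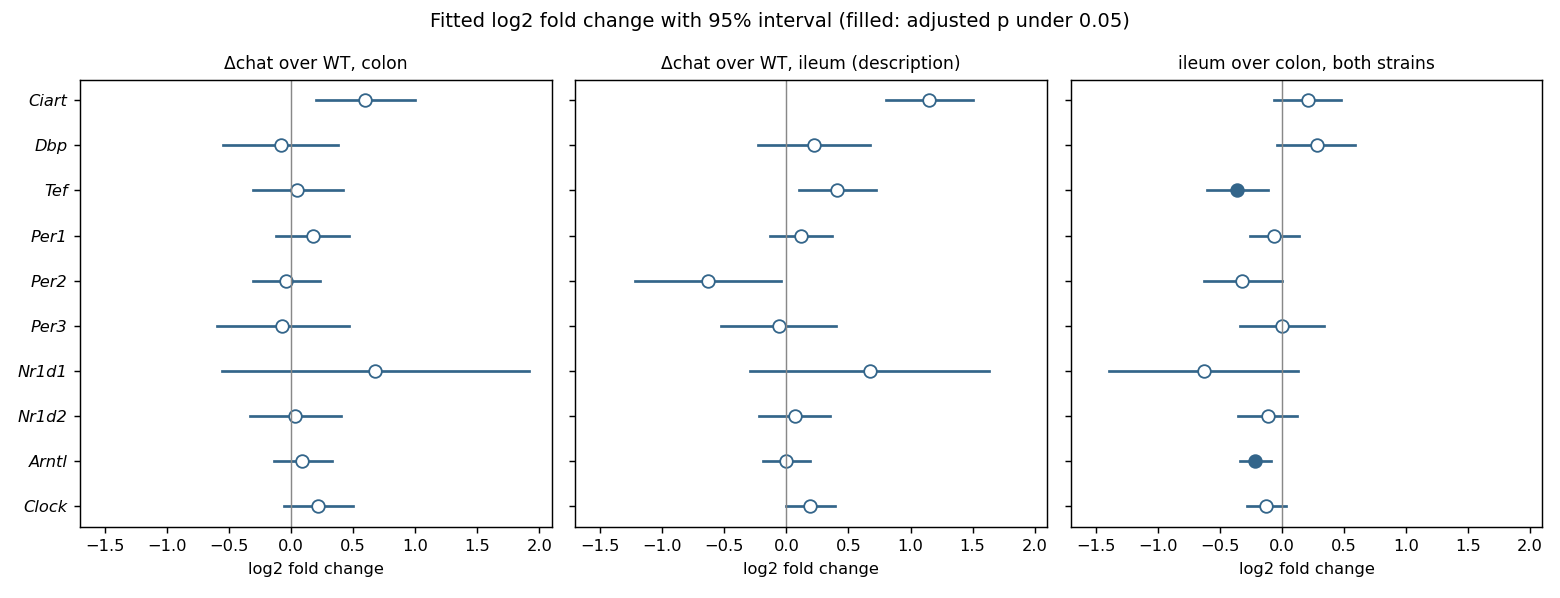
Fitted log2 fold changes (points) of the 10 clock genes with 95% intervals (lines) in 3 comparisons, Δchat over WT in colon, Δchat over WT in ileum, and ileum over colon averaged over strains. Filled points passed an adjusted p of 0.05, which no member did in colon and *Tef* and *Arntl* did between tissues, and the ileum panel is a description with no test.

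*Ciart* was divided by each other member within each library, a measure chosen after the values were seen. The ratio to *Nr1d2* was between 0.246 and 0.284 in Δchat colon and between 0.159 and 0.193 in WT colon, and the ratio to *Tef* between 0.800 and 0.974 in Δchat colon and between 0.558 and 0.700 in WT colon. Neither ratio overlapped between the strains, and the same held for the ratios to *Dbp* and *Per1*. No test is given, since *Ciart* alone already separates these groups. Of all genes tested in colon, 37.2% gave a *Ciart* ratio that did not overlap with Δchat higher, so 4 of 9 members was near that background. In the ileum the ratio was higher without overlap for 8 of 9 members, the exception being *Nr1d1*, and for 79.2% of all genes.

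A clock index was computed for each library, the mean log2 CPM of the 8 targets and repressors minus the mean of *Arntl* and *Clock*. Whether the index measures the phase of the loop was not tested, and its 8 genes did not all move together. With strain means subtracted, *Per2* and *Nr1d1* had an r of -0.44 in colon and -0.88 in ileum. *Tef* and *Nr1d2* had an r of 0.90 in colon and 0.92 in ileum. The index was -0.56, -0.27, -1.03 and -0.98 in Δchat colon, against -0.88, -0.57, -1.01 and -0.55 in WT colon. Replicates 3 and 4 of Δchat lay at the low end with replicates 1 and 3 of WT, and replicate 2 of Δchat was the highest of the 16 libraries. In the ileum it was -0.42, -0.39, -1.0 and -0.59 with Δchat, against -0.81, -0.68, -0.77 and -0.77 with WT. In WT ileum the 4 libraries lay close together, whereas the Δchat ileum libraries lay on both sides of them. Without *Ciart* in the index the means were -0.70 ± 0.34 in Δchat colon and -0.69 ± 0.24 in WT colon, and -0.67 ± 0.27 in Δchat ileum and -0.71 ± 0.07 in WT ileum (SD, n = 4 each). In each tissue the means differed by less than the SD of either group. No test was made of the index, because it is a score over the members. The Δchat libraries with the lowest index had the highest stromal sums of their groups. These were 4320 and 3880 CPM in replicates 3 and 4 of Δchat colon and 3950 CPM in replicate 3 of Δchat ileum. In WT colon the sum was 4640 CPM in replicate 3, but it was highest, at 5490 CPM, in replicate 2, where the index was -0.57. The part of cell content in the index was not tested.

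**Figure D3:**
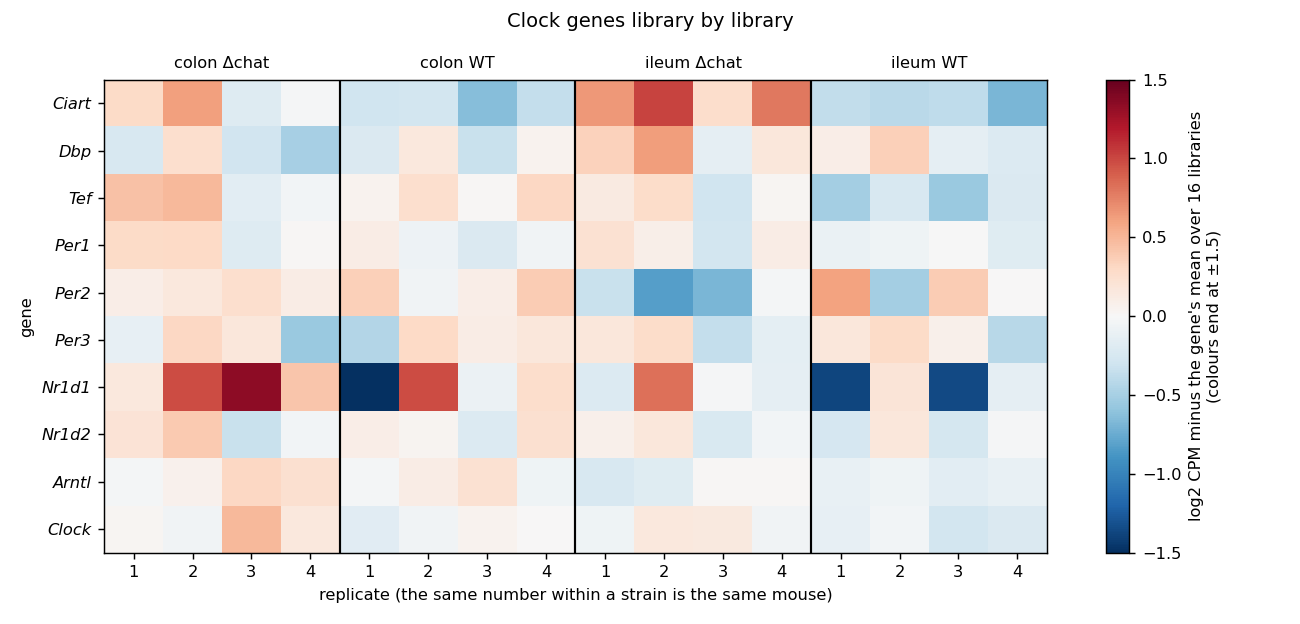
Log2 CPM of each clock gene in each of the 16 libraries minus that gene's mean over all 16, with red above the mean and blue below, and colours ending at ±1.5. Columns run from Δchat colon, WT colon and Δchat ileum to WT ileum, replicates 1 to 4 in each. The *Ciart* row is above its mean in most Δchat libraries and below it in the WT libraries, and *Nr1d1* has the widest range.

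Between the tissues, *Arntl* and *Tef* were lower in ileum than in colon. No other member was called, with *Ciart* given without a test. This comparison averages over the strains. It uses the ileum libraries that chose *Ciart*, so its value is given for that gene with no test. *Arntl* ranged from 37.0 to 44.5 CPM in the 8 ileum libraries, with a median of 40.7, and from 42.0 to 54.2 CPM in the 8 colon libraries, with a median of 46.5. It was lower in the ileum of 8 of 8 mice, as paired by strain and replicate number, with a log2 fold change of -0.22 ± 0.06 (SE) and an edgeR adjusted p of 0.0112. *Tef* ranged from 23.4 to 41.8 CPM in ileum, with a median of 29.3, and from 30.7 to 48.3 CPM in colon, with a median of 38.3. It was lower in the ileum of 7 of 8 mice, with a log2 fold change of -0.36 ± 0.12 (SE) and an edgeR adjusted p of 0.0250. Differences between these tissues were common: 5809 of 15198 genes were called (38.2%), with 19.7% lower in ileum, so 2 of 10 members is near the background. The median over the members was -0.12, against -0.04 over all genes. The *Arntl* call was lost without WT mouse 3 (adjusted p 0.101), and the *Tef* call without Δchat mouse 1 (0.0597) or WT mouse 1 (0.0563).

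The strains taken singly gave fewer calls. In Δchat mice alone neither gene was called (log2 fold change -0.17 for *Tef*, edgeR adjusted p 0.605, and -0.26 for *Arntl*, adjusted p 0.212). In WT mice alone *Tef* was called (-0.52, edgeR adjusted p 0.00756) and *Arntl* was not (-0.15, adjusted p 0.144). *Nr1d1* was lower in the ileum of 7 of 8 mice, with a median of 23.9 CPM in ileum and 33.4 CPM in colon. Its log2 fold change was -0.63 ± 0.36 (SE) with an edgeR adjusted p of 0.174, and with the mouse as a block it passed, at -0.57 ± 0.18 (SE) and an adjusted p of 0.0326. *Dbp* was higher in the ileum of 7 of 8 mice, at a median of 7.09 CPM in ileum and 5.49 CPM in colon, with a log2 fold change of 0.28 ± 0.15 (SE) and an edgeR adjusted p of 0.147. *Sphk2*, which overlaps *Dbp*, had 136 ± 35.2 CPM in ileum and 67.0 ± 8.71 CPM in colon (SD, n = 8 each), a log2 fold change of 1.0 ± 0.11 (SE), and its part in the *Dbp* value was not tested. *Ciart* had a log2 fold change between tissues of 0.21 ± 0.13 (SE), given as a description. That average combined 0.49 ± 0.21 in Δchat mice with -0.05 ± 0.11 in WT mice. *Per2* had -0.32 ± 0.15 (SE, edgeR adjusted p 0.106), *Clock* -0.13 ± 0.07 and *Nr1d2* -0.11 ± 0.11, and *Per1* and *Per3* had -0.06 and 0.00.

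Colon and ileum libraries that share strain and replicate number were taken as 1 mouse. That pairing was inferred from the design and the library names, and over all genes the deviations of a pair correlated by only -0.21 to 0.29, with the own partner best for 2 of 8. After subtracting the strain mean in each tissue, *Tef* in colon and ileum had a Pearson r of 0.89 and a Spearman rho of 0.86 over 8 mice. Every mouse lay on the same side of its strain mean of *Tef* in both tissues. Its exact permutation p over all pairings within strain was 0.00174, the smallest these pairings can give, and 0.00347 for rho. After Benjamini-Hochberg adjustment over 14198 genes the p was 0.997, and no gene passed, while 594 genes (4.18%) had an unadjusted p under 0.05. Without the 2 mice farthest from the median the r of *Tef* was 0.76. *Nr1d1* had an r of 0.73 (rho 0.83) and *Nr1d2* an r of 0.71 (rho 0.69), with exact permutation p of 0.0642 for both r values, 0.0312 and 0.101 for the rho values and adjusted p of 0.997. Without the 2 farthest mice these were 0.46 and 0.47. *Ciart* and *Dbp* also had an r of 0.64 each (rho 0.40 and 0.52), with an exact permutation p of 0.177 and 0.141 for r and 0.408 and 0.253 for rho, but without 2 mice these turned to -0.34 and -0.15, so they rest on those mice. All 10 members had an r above 0, as did 56.3% of all genes, with a median of 0.64 for the members and 0.07 for all genes. The lowest r values were 0.03 for *Clock* and 0.05 for *Per3* (exact permutation p 0.970 and 0.915). The members share libraries and regulators, so their r values are not independent of each other. In Δchat mice *Tef* ranked in the order of *Ptprc* in both tissues. Δchat mouse 3 had the lowest *Ptprc* of its group in each tissue, at 656 CPM in colon and 601 CPM in ileum. Its stromal sums, 4320 CPM in colon and 3950 CPM in ileum, were the highest of those groups. In WT mice *Tef* followed the order of *Ptprc* in neither tissue. The part of cell content in the same-mouse r values was not tested.

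**Figure D4:**
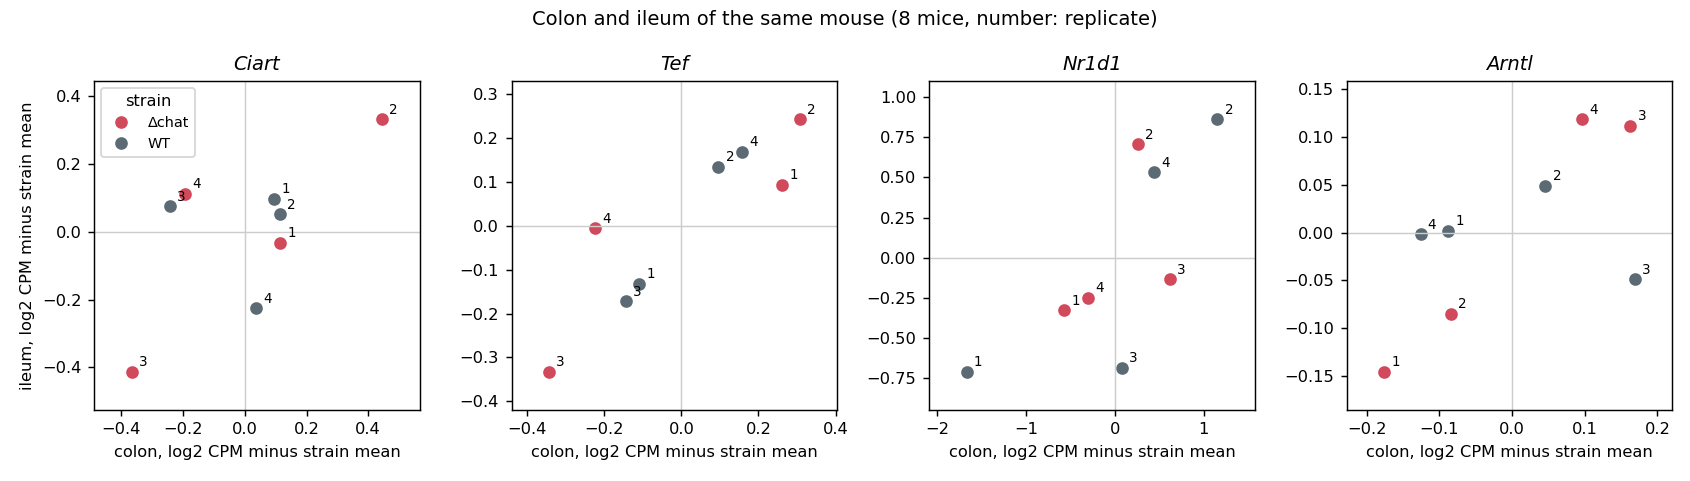
Log2 CPM in ileum against log2 CPM in colon of the same mouse for *Ciart*, *Tef*, *Nr1d1* and *Arntl*, each minus the mean of the strain in that tissue, with 8 mice numbered by replicate and coloured by strain. *Tef* follows a line from Δchat mouse 3 at the low end to Δchat mouse 2 at the high end, and *Ciart* rests on those same mice.

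*Arntl* and its targets were also set against each other across the libraries of a tissue, again with strain means subtracted. In the colon *Per1* had an r of -0.88 with *Arntl* (rho -0.81, exact permutation p 0.0243 and 0.0295) and *Nr1d2* an r of -0.88 (rho -0.81, exact permutation p 0.0156 and 0.0347) over 8 libraries. The adjusted p over all genes was 0.170 for *Per1* and 0.167 for *Nr1d2*, and 0.268 for both rho values. Without the 2 libraries farthest from the median, r was -0.77 for *Per1* and -0.73 for *Nr1d2*. *Tef* had -0.79 (rho -0.74), *Ciart* -0.76 (rho -0.69) and *Clock* 0.72 (rho 0.60), with exact permutation p of 0.0642, 0.0712 and 0.0573 for r and adjusted p of 0.215, 0.225 and 0.205. Their exact permutation p for rho were 0.0625, 0.0972 and 0.167. In all, 6 of the 9 other members had an r below 0 in colon, with a median of -0.46, against 44.2% of all genes and a median of 0.15. Strong relations with *Arntl* were common in these libraries, since 25.4% of all genes had a permutation p under 0.05 and none passed adjustment. In Δchat colon *Per1*, *Nr1d2*, *Tef* and *Ciart* ranked in the order of *Ptprc*, at 987, 1100, 656 and 739 CPM. Replicates 3 and 4, with the lowest *Ptprc* there, had the highest *Arntl*. In WT colon *Ptprc* was at 1280, 898, 839 and 1010 CPM, the order of *Per1* but not of *Nr1d2*, *Tef* or *Ciart*. The part of cell content in these r values was not tested. In the ileum 7 of 9 had an r below 0, with a median of -0.38 against -0.01 over all genes, and the lowest was *Per1* at -0.64 (rho -0.50, exact permutation p 0.257 and 0.354, adjusted p 0.998 for r). *Nr1d1*, whose product represses *Arntl*, had an r of 0.38 in colon and 0.04 in ileum (exact permutation p 0.387 and 0.943).

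A wider list of 25 clock regulators and clock-controlled genes was read from the same fits, with 24 tested and *Rorb* too low to test. In the colon 13 had a log2 fold change above 0 and 11 below, the median was 0.02 against 0.01 over all genes, and edgeR called 0 of them. At an unadjusted p under 0.05 were 4 of the 24, near the 13.3% of all genes. DESeq2 called 1 of them, beside 2.27% of all genes: *Bhlhe40*, which encodes an E-box repressor also known as DEC1. *Bhlhe40* was at 681 ± 63.5 CPM in Δchat colon and 534 ± 29.9 CPM in WT colon (SD, n = 4 each), without overlap, with an edgeR log2 fold change of 0.36 ± 0.09 (SE) and adjusted p of 0.290, and a DESeq2 adjusted p of 0.0087. Of the next 3 by mean CPM in the colon, *Nampt* had a log2 fold change of 0.06 ± 0.15, *Csnk1d* of -0.01 ± 0.08 and *Noct* of -0.06 ± 0.14 (SE), with edgeR adjusted p of 0.897, 0.955 and 0.877. In the ileum, as a description, 8 were above 0 and 16 below, with a median of -0.10. *Bhlhe40* was among those below 0 there, opposite to its direction in colon. It was at 788 ± 128 CPM in Δchat ileum and 896 ± 64.7 CPM in WT ileum (SD, n = 4 each), with overlap. Its log2 fold change in ileum was -0.20 ± 0.12 (SE).

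Between tissues 6 of the 24 were higher and 5 lower in ileum at an edgeR adjusted p under 0.05, beside 18.5% and 19.7% of all genes. *Rora*, a receptor that activates *Arntl*, rose to 227 ± 46.4 CPM in ileum, against 105 ± 27.0 CPM in colon (SD, n = 8 each), with a log2 fold change of 1.1 and an edgeR adjusted p of 7.31e-05. *Bhlhe40* (0.47, edgeR adjusted p 0.00033) and *Fbxl21*, an F-box gene of cryptochrome turnover (0.97, edgeR adjusted p 0.00208), rose as well. The level of *Fbxl21* was low, at 2.16 ± 0.467 CPM in ileum and 1.09 ± 0.287 CPM in colon (SD, n = 8 each). *Cry2*, a cryptochrome that represses CLOCK and BMAL1, fell to 22.5 ± 2.49 CPM in ileum, against 33.2 ± 2.63 CPM in colon (SD, n = 8 each), with a log2 fold change of -0.57 and an edgeR adjusted p of 1.68e-05. *Cipc*, a CLOCK-interacting repressor (-0.80, adjusted p 0.000495), fell too. *Cry2* and *Cipc* were lower in the ileum of 8 of 8 mice, and *Rora*, *Bhlhe40* and *Fbxl21* higher in 8 of 8.

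Glucocorticoids can reset peripheral clocks and induce *Per1*, so 15 genes of that response were read as well. In the colon edgeR called 0 of 15, with 3 at an unadjusted p under 0.05, a share near the 13.3% of all genes. The log2 fold change was above 0 for 12 of the 15, with a median of 0.18, against 0.01 over all genes. The 4 with the highest levels, chosen by mean CPM, included *Dusp1*, a phosphatase gene, at 963 ± 182 CPM in Δchat colon and 716 ± 150 CPM in WT colon (SD, n = 4 each), with a log2 fold change of 0.44 and an edgeR adjusted p of 0.345. Of the other high genes, *Per1* is given above, *Tsc22d3* had 0.10 ± 0.13 (SE) and *Sgk1* 0.46 ± 0.16 (SE, edgeR adjusted p 0.328). In the ileum, as a description, 13 were below 0 and 2 above, with a median of -0.27. Of the 15, 3 were lower in Δchat ileum without overlap, which 3.66% of all genes were, and none was higher without overlap. Between tissues 3 of the 15 were higher and 1 lower in ileum, beside 18.5% and 19.7% of all genes, so no more than the background. *Nr3c1*, the glucocorticoid receptor (log2 fold change 0.61, edgeR adjusted p 0.000157), *Cdkn1a* (0.62, 0.00433) and *Dusp1* (0.38, 0.0146) were higher in ileum, and *Mt2*, a metallothionein (-1.04, 0.00142), was lower.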

How the data were processed

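RNA of lamina propria cells was sequenced after poly-A selection. Per the submitters' processing notes, cutadapt 5.0, Salmon 1.4.0 and GRCm39 were used, and the annotation release was not given in the sources used here. The deposited table holds estimated counts, which the authors did not normalise, in 16 libraries of 15940467 to 23612561 counts. Between 34.8 and 40.7% of a library's values were not whole and were rounded here. Of 35647 genes 35105 had a symbol, and the 542 without one took at most 0.105% of a library.

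Libraries were grouped by title, and none was left out. Each tissue was fitted alone with edgeR 4.0.16 (R 4.3.3, TMM scaling, filterByExpr, robust quasi-likelihood test) for Δchat against WT. Ileum against colon came from 1 fit of 16 libraries with 4 group means. Genes were called at a Benjamini-Hochberg adjusted p under 0.05, and intervals use the fit's residual and prior degrees of freedom. DESeq2 1.42.0 was an alternative. Log2 CPM used a prior count of 2. Precision is that of 4 libraries per group.

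A colon and an ileum library that share strain and number were treated as 1 mouse, from the design of 4 mice per group and the library names. Deviations of all genes from group means correlated between the pairs by -0.21 to 0.29, so the expression data alone do not show the pairing. Numbers do not pair mice of different strains. In simulated data with the same means, the fit recovered 53.5% of genes changed by 1 on the log2 scale and 86.7% of those changed by 2 in colon (14506 genes), and 70.4% and 94.9% between tissues (15037 genes).

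The members, the lists and the tests were chosen with earlier results of these data known. All 10 members are named in every comparison. Of the wider clock and glucocorticoid lists, up to 6 called genes per tested comparison are named by smallest p, and otherwise up to 4 by highest mean CPM. A result that this rule names is not reported here. For likeness, the 6 genes with the highest and lowest r are named among those with a mean of at least 5 CPM.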

Additional observations from a re-analysis of the deposited data

Results flagged for a closer look

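Of 40 sets of 4 libraries (10 members in 4 groups), 2 held a library whose distance from its nearest neighbour was large against the range of the set, and chance gives about 1 in 20. *Ciart* in WT ileum replicate 4 was low, at 19.0 CPM, with the nearest library at 23.0 CPM. *Nr1d1* in Δchat ileum replicate 2 was high, at 46.6 CPM, with the nearest library at 26.0 CPM. Leaving out each ileum library in turn kept the log2 fold change of *Ciart* between 1.04 and 1.27 and that of *Nr1d1* between 0.37 and 1.01.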

How the results depend on the processing

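No alternative called a member in the colon, where the log2 fold change of *Ciart* lay between 0.43 and 0.71. The number of genes called in colon, 1, became 313 with DESeq2, 10 with 1 fit of all 16 libraries and 0 with the replicate block, and 0 to 3 without 1 library. In ileum the 3 calls became 374 with DESeq2, 42 with 1 fit of all libraries, 5 with no filter, 0 with RLE size factors, 0 with a stricter filter and 0 with the replicate block, and 0 to 247 without 1 library, the 247 without Δchat replicate 3. Between tissues 5809 genes became 768 in Δchat mice alone, and the 2 members called became 0 in Δchat mice alone, 1 in WT mice alone and 1 to 2 without 1 mouse. *Ciart* turned to -0.05 between tissues in WT mice alone. DESeq2 called 1 gene of the wider clock list in colon, where edgeR called 0. Between tissues that list's 11 calls became 1 in Δchat mice alone, and the glucocorticoid list's 4 became 1 in Δchat mice alone and 7 in WT mice alone. Without 1 library the small colon changes crossed 0: -0.05 to 0.16 for *Tef*, -0.09 to 0.14 for *Nr1d2*, -0.26 to 0.01 for *Dbp*, -0.20 to 0.07 for *Per3* and -0.12 to 0.03 for *Per2*. The same-mouse r without 1 mouse ran from -0.18 to 0.48 for *Per2*, -0.17 to 0.22 for *Per3* and -0.51 to 0.32 for *Clock*. Without the 2 mice farthest from the median it was -0.34 for *Ciart*, -0.15 for *Dbp*, -0.03 for *Per2* and -0.25 for *Clock*, and *Clock* had -0.01 without immunoglobulin genes and -0.21 by rank. The r with *Arntl* without 1 library ran from -0.11 to 0.33 for *Per3* in colon, and in ileum from -0.33 to 0.16 for *Per2*, -0.13 to 0.26 for *Nr1d1* and -0.03 to 0.59 for *Clock*. Without the 2 libraries farthest from the median it was -0.23 for *Per3* in colon and -0.02 for *Nr1d1* in ileum, and by rank 0.10 for *Per2* in ileum. The cause of these changes was not tested. With the mouse as a block between tissues, *Nr1d1* became a call (-0.57) and no member lost one. Same-numbered mice of different strains correlated by -0.11 to 0.34 in colon and -0.29 to -0.02 in ileum, so numbers were not used to pair them. With 4 mice per group at an unknown hour, a strain difference within the members' spread was not detectable.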

Other observations

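Across the 16 libraries, the level of *Ciart* was most like those of *Git2* (Pearson r 0.88), *Tfip11*, *Kdm2a*, *Ncbp3* and *Dgkz* (0.86 each) and *Wac* (0.85), among 11008 genes with a mean of at least 5 CPM. Of the members, *Per1* was closest, with an r of 0.62, then *Dbp* with 0.55 and *Tef* with 0.48, and *Per2* ran the other way with -0.51. The genes most like the clock index were *Pitpnm1* and *Plcl2* (0.83 each), *Zfp120*, *Kdm6a* and *Tmem135* (0.82 each) and *Haus3* (0.81). Those most opposed to it were *Ttc21b* (-0.86), *Errfi1*, *Ryk*, *Serpinh1* and *Trip10* (-0.83 each) and *Ybx3* (-0.82). These are descriptions over libraries that share mice, tissue and strain, and no p was computed.

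In the ileum, 3 genes of the wider clock list were lower in Δchat than in WT mice without overlap, which 3.66% of all genes were. *Usp2*, a deubiquitinase gene under clock control, was at 33.1 ± 4.35 CPM in Δchat ileum and 46.1 ± 2.93 CPM in WT ileum (SD, n = 4 each). *Wee1*, a cell-cycle kinase gene with clock control known in mouse liver, was at 11.6 ± 1.54 CPM in Δchat ileum and 15.8 ± 1.23 CPM in WT ileum (SD, n = 4 each). *Cry2* was at 20.5 ± 1.43 CPM in Δchat ileum and 24.5 ± 1.33 CPM in WT ileum (SD, n = 4 each). These 3 were picked once their values were known, and no test is given for them. *Usp2* and *Cry2* had log2 fold changes of 0.09 and 0.00 in the colon, and *Wee1* had -0.41 with an edgeR adjusted p of 0.350.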
